A study of Arabidopsis thaliana with 15 samples.

Results

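The 8 equilibrative nucleoside transporter genes of Arabidopsis thaliana, ENT1 to ENT8, were followed in rosette leaves of plants that lack DNA demethylases. They were taken by their locus identifiers: ENT1 (AT1G70330), ENT2 (AT3G09990), ENT3 (AT4G05120), ENT4 (AT4G05130), ENT5 (AT4G05140), ENT6 (AT4G05110), ENT7 (AT1G61630) and ENT8 (AT1G02630). All 8 had a row among the 37336 genes counted. The family was chosen by its measured levels in these same libraries, mainly those of ENT6. Its levels and fold changes are therefore given as a description without a test.

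Polyadenylated RNA from the fifth rosette leaf was sequenced in 15 libraries of 21 day old plants, grown with 16 h of light a day at 22 °C and 50% humidity. The drdd plants carry dme-2, ros1-3, dml2-1 and dml3-1 (3 libraries), the rdd plants ros1-3, dml2-1 and dml3-1 (4 libraries), and the dme plants dme-2 (4 libraries). WT are segregants with all 4 genes intact (4 libraries). Every genotype, WT included, also carries a transgene that expresses DME from the AGL61 promoter, which is known for its activity in the central cell of the ovule. The labels do not say whether the replicate letters A to D stand for separate plants, so the errors and p-values measure the spread between libraries, which may be technical.

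DME, ROS1, DML2 and DML3 are DNA glycosylases that excise 5-methylcytosine, so that an unmethylated base can be put in its place. Equilibrative nucleoside transporters are membrane proteins with many spans that let nucleosides such as adenosine and uridine cross cell membranes. In plants they take up and recycle nucleosides released when RNA and nucleotides are broken down, and some members also carry cytokinin ribosides, the transport form of this hormone. ENT1 protein has been placed at the vacuolar membrane, where it releases nucleosides from the vacuole, and ENT3 at the plasma membrane, where it takes up nucleosides from outside the cell.

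Levels are given as CPM (read counts relative to library size, after TMM scaling of the sizes), with the SD over libraries. Libraries held 8730340 to 23302135 counts. Among the mutated genes, DML2 transcript fell to 8.99 ± 2.29 CPM in drdd and 6.96 ± 2.18 CPM in rdd, against 26.4 ± 4.41 CPM in WT (SD, n = 3, 4 and 4; edgeR's quasi-likelihood test with Benjamini-Hochberg adjustment, adjusted p = 0.00221 for drdd and 0.000141 for rdd). DML3 was at 3.13 ± 0.626 CPM in drdd and 3.23 ± 0.867 CPM in rdd, against 6.51 ± 1.39 CPM in WT, and did not pass that test (edgeR adjusted p = 0.102 and 0.0823). It was called by DESeq2 (adjusted p = 0.0262 and 0.0144). ROS1 was at 61.9 ± 4.82 CPM in drdd and 58.5 ± 6.73 CPM in rdd, against 81.2 ± 10.9 CPM in WT, and did not pass edgeR's test either (edgeR adjusted p = 0.298 and 0.161; DESeq2 adjusted p = 0.239 and 0.0792). In the authors' deposited DESeq2 tables its adjusted p is 0.137 for drdd and 0.0185 for rdd against WT, so that the rdd decrease passes there. For DML3 and ROS1 alike, every drdd and rdd library lay below all WT libraries. DME transcript averaged 73.9 ± 4.63 CPM in drdd and 62.8 ± 8.40 CPM in dme, against 89.5 ± 10.1 CPM in WT (edgeR adjusted p = 0.386 and 0.974), and reads of the gene and of the transgene cannot be told apart. Every dme library lay below all WT libraries for DME (at most 74.7 against at least 76.7 CPM), whereas drdd overlapped with WT. The summed level of 8 mesophyll markers, all of them detected, was 36782 to 62865 CPM over the 15 libraries, whereas 6 root markers summed to at most 1.63 CPM, with 2 of them at 0 in every library.

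The family falls into 2 groups by gene structure and sequence, read from RefSeq's TAIR10.1 annotation. ENT1 and ENT8 have 2 coding exons, share 42.3% of their protein residues, and lie on chromosome 1. ENT2 to ENT7 have 8 or 9 coding exons. ENT2 lies on chromosome 3 and ENT7 on chromosome 1. ENT6, ENT3, ENT4 and ENT5 follow each other on chromosome 4 in this order, a tandem cluster of copies with a microRNA gene and a pseudogene annotated among them. The proteins of ENT3 and ENT6 are 84.5% identical, those of ENT3 and ENT4 82.5%, and those of ENT4 and ENT6 74.6%. ENT1 shares 25.8% to 29% with ENT2 to ENT7.

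This likeness limits how reads can be assigned. The longest stretch of identical coding bases is 86 between ENT3 and ENT6, 38 between ENT3 and ENT4, and 33 between ENT4 and ENT6. Reads that lie inside such a stretch could come from either copy, so the levels of the tandem genes carry that uncertainty. MIR397a, which encodes a microRNA, is annotated within the ENT6 gene on the opposite strand and is not a row of the count tables. The strand setting of the counting is not given in the sources used here, so reads of its precursor and of ENT6 cannot be told apart.

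In leaves, 4 of the 8 genes were detected. ENT2, ENT5, ENT7 and ENT8 had 0 counts in each of the 15 libraries. A count of 0 allows up to 3 counts, which is 0.129 CPM in the deepest library, 0.344 CPM in the shallowest, and 0.0158 CPM over all libraries together, for counting error only. Of 27444 annotated protein-coding genes, 4909 (17.9%) likewise had no count in any library. ENT1, ENT3, ENT4 and ENT6 passed the count filter that left 18598 genes for fitting.

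ENT6 was the member whose level differed most between genotypes. It stood at 7.34, 4.13 and 5.31 CPM in the drdd libraries (143, 42 and 54 counts). In rdd its level was 0.361, 0.209, 0.264 and 0.215 CPM, from 4, 2, 3 and 5 counts. The dme libraries had 3.86, 4.09, 3.47 and 8.43 CPM, and the WT libraries 2.76, 3.65, 3.22 and 3.87 CPM. Each rdd library lay below all 11 others. The drdd libraries lay above all WT libraries and overlapped with dme, and dme overlapped with WT. The group means were 5.59 ± 1.63 CPM in drdd, 0.262 ± 0.0702 in rdd, 4.96 ± 2.32 in dme and 3.37 ± 0.492 in WT (SD, n = 3, 4, 4 and 4). The order of the levels was thus drdd, dme, WT and rdd, and neither neighbouring pair among the upper 3 differed beyond the spread of its libraries. In this bulk tissue, fewer cells with the transcript and less transcript per cell cannot be told apart.

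**Figure D1:**
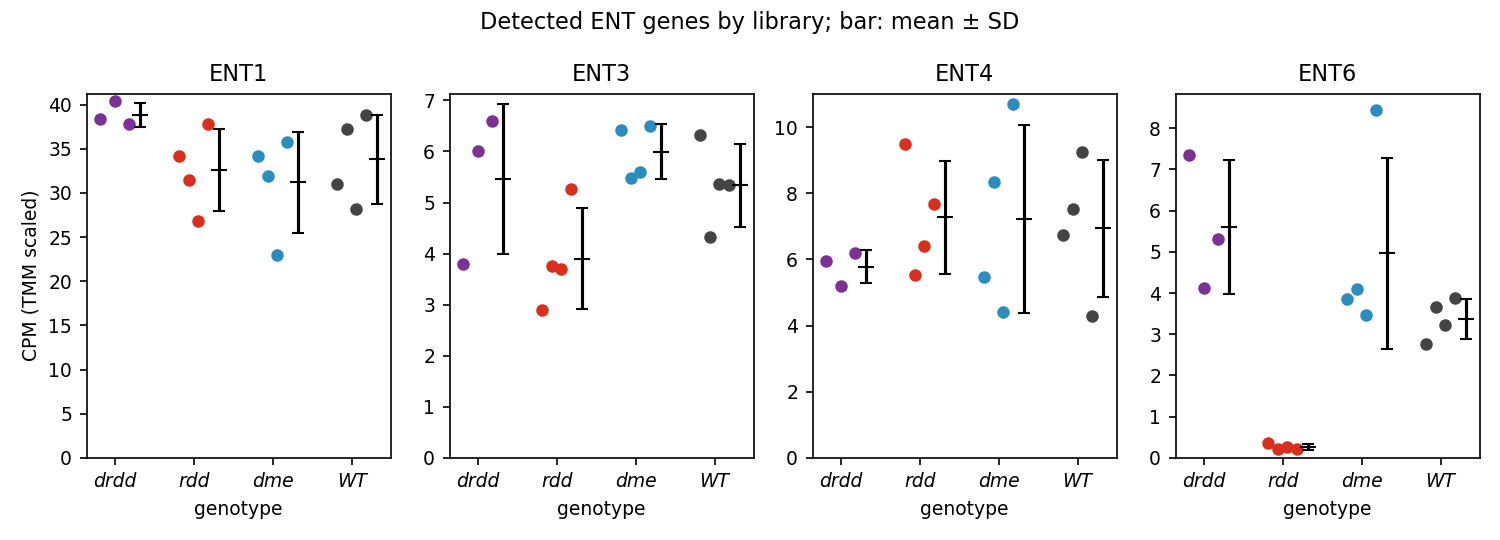
Level of ENT1, ENT3, ENT4 and ENT6 (CPM, vertical axis from 0, scaled separately for each gene) in every library of drdd, rdd, dme and WT. Each point is a library, and the bar beside the points gives the mean and SD. For ENT6 the 4 rdd libraries sit at 0.209 to 0.361 CPM and all other libraries at 2.76 CPM or higher; for ENT3, ENT4 and ENT1 the rdd points overlap with those of WT.

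On the log2 scale, the fitted change of ENT6 was −3.66 in rdd over WT (SE 0.37) and 4.40 in drdd over rdd (SE 0.38). These are fold changes across libraries, in the fit of all 15. The corresponding values were 0.74 in drdd over WT (SE 0.31), 0.56 in dme over WT (SE 0.29) and 0.18 in drdd over dme (SE 0.31). The dme value leaned on library D: without it, the log2 change of dme over WT was 0.18 and that of drdd over dme 0.56. The authors' deposited table lists ENT6 at a log2 fold change of −3.72 (SE 0.51) for rdd over WT. In the authors' deposited table for drdd over rdd its log2 fold change is 4.45 (SE 0.55). The comparisons of rdd with WT and of drdd with rdd share the rdd libraries, and are given side by side for that reason.

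The 4 rdd libraries together held 14 counts of ENT6, a pooled level of 0.254 CPM with an exact 95% Poisson interval of 0.139 to 0.425 CPM. The 4 WT libraries held 152 counts, 3.35 CPM with an interval of 2.84 to 3.93 CPM. Intervals cover counting error only, and reads without molecular identifiers are not independent molecules. Scaled library sizes summed to 55222441 counts in rdd and 45351396 counts in WT. A pattern with every rdd library below the 11 others, as for ENT6, was seen in 103 tested genes (0.554%).

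The counts of ENT members past the threshold of an adjusted p under 0.05 are given beside the shares over all tested genes. They rest on few genes, and because these comparisons chose the family nothing is read from them. In rdd against WT, 1 of the 4 members that passed the filter, ENT6, was called lower, where 1.08% of tested genes were called. In drdd against rdd, 1 of these 4, again ENT6, was called higher, with a background of 0.468%. None of the 4 was called in drdd against WT (background 1.35%), dme against WT (0.0108%) or drdd against dme (2.26%). Non-overlapping CPM was seen for 1 member in drdd against WT, 1 in rdd against WT, 2 in drdd against rdd and 1 in drdd against dme, and for no member in dme against WT. Among tested genes the shares without overlap were 13.1%, 10.3%, 12.1%, 14.4% and 2.17% in those comparisons. After TMM scaling, no ENT gene had every drdd library above the 12 others, a pattern seen in 0.785% of tested genes.

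**Figure D2:**
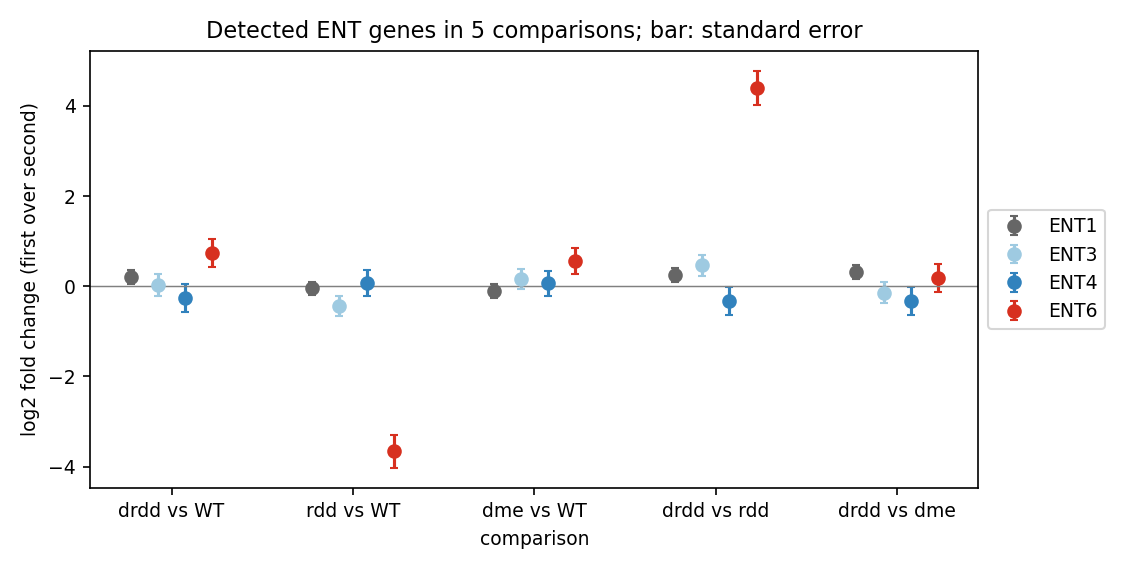
Fitted log2 fold changes of ENT1, ENT3, ENT4 and ENT6 (vertical axis, first genotype over second) in the 5 comparisons on the horizontal axis, with bars for the standard error. ENT6 stands at −3.66 in rdd over WT and at 4.40 in drdd over rdd, while the other 3 genes stay between −0.44 and 0.46.

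ENT3, the tandem copy closest to ENT6 in sequence, had 3.8, 6 and 6.59 CPM in drdd libraries, 2.89, 3.76, 3.69 and 5.26 in rdd, 6.42, 5.48, 5.59 and 6.49 in dme, and 6.32, 4.33, 5.37 and 5.35 in WT. The rdd values ran lowest but overlapped with every other genotype except dme, and the fitted log2 difference of rdd over WT was −0.44 (SE 0.22). The ENT3 level of rdd D (5.26 CPM) reached into the WT range, while its ENT6 level was among the lowest of all libraries.

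ENT4 showed no such order. It averaged 5.79 ± 0.512 CPM in drdd, 7.28 ± 1.71 in rdd, 7.23 ± 2.85 in dme and 6.95 ± 2.07 in WT (SD, n = 3, 4, 4 and 4), with overlap between every pair of genotypes. Its log2 difference was 0.07 in rdd over WT (SE 0.28) and −0.26 in drdd over WT (SE 0.31). Library dme D, which had the highest ENT6 level, also had the highest ENT4 level, 10.7 CPM.

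The share of ENT6 in the summed counts of ENT6, ENT3 and ENT4 does not depend on how libraries are scaled. It was 42.9%, 26.9% and 29.3% in the drdd libraries and 2.84%, 2.20%, 2.54% and 1.64% in the rdd libraries. It was 24.5%, 22.8%, 25.8% and 32.9% in dme and 17.4%, 23.5%, 18.1% and 28.7% in WT. The rdd libraries, with 91 to 305 counts over the 3 genes, lay below all others. ENT3's share was about level, at 32.6% ± 9.08 in drdd, 34.5% ± 8.10 in rdd, 34.5% ± 7.90 in dme and 34.4% ± 6.30 in WT. ENT4's share was 34.3% ± 0.416 in drdd, 63.2% ± 7.69 in rdd, 39.0% ± 6.42 in dme and 43.7% ± 8.86 in WT (SD, n = 3, 4, 4 and 4). The 3 shares are parts of one whole, so a gene of unchanged level gains share where ENT6 loses it. By CPM, ENT3 averaged 3.9 in rdd and 5.34 in WT, and ENT4 7.28 in rdd and 6.95 in WT, with overlap for both.

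**Figure D3:**
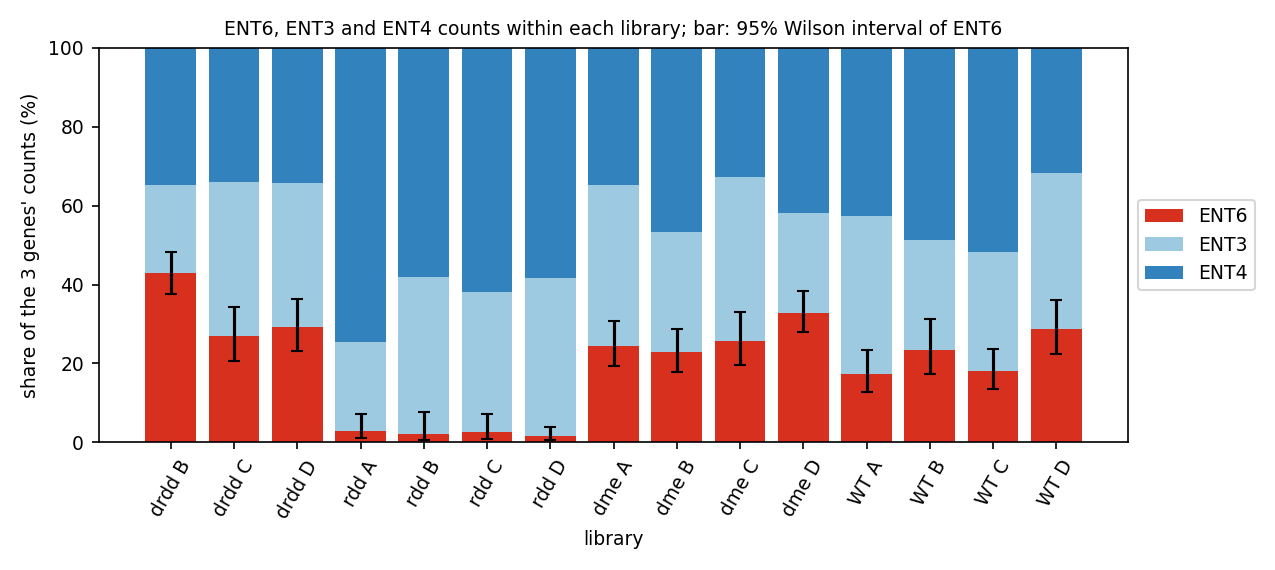
Share of ENT6, ENT3 and ENT4 in their summed counts (%, stacked bars) for each library, with the 95% Wilson interval of the ENT6 share, which covers counting error within a library only. ENT6 makes up 1.64% to 2.84% in the rdd libraries and 17.4% to 42.9% in the others.

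Per kilobase of coding length, which allows genes to be compared, ENT1 was the most abundant member in every genotype. It stood at 28.7 CPM per kb in drdd, 24.1 in rdd, 23.1 in dme and 25 in WT. ENT4 had 4.60 to 5.79 CPM per kb and ENT3 3.10 to 4.77 over the genotype means. ENT6 had 4.18 CPM per kb in drdd, 0.196 in rdd, 3.71 in dme and 2.52 in WT. ENT6 was therefore below ENT3 and ENT4 in rdd, dme and WT on this scale, and all 3 genes lay between 4.18 and 4.60 CPM per kb in drdd.

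ENT1 itself varied little. Its level was 38.4, 40.4 and 37.8 CPM in drdd, 34.2, 31.5, 26.8 and 37.8 CPM in rdd, 34.2, 31.9, 23.0 and 35.8 CPM in dme, and 31.0, 37.3, 28.2 and 38.8 CPM in WT. The drdd libraries lay above the rdd and dme libraries, by a margin within rounding for rdd, and overlapped with WT. Without TMM scaling they lay above all WT libraries too. The log2 difference was 0.25 in drdd over rdd (SE 0.16), 0.32 in drdd over dme (SE 0.16) and 0.20 in drdd over WT (SE 0.16).

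The genes around the tandem were read next. Of the 5 annotated genes on either side, 4 passed the count filter: AT4G05090, MYB74, AT4G05150 and AT4G05160. None was called by edgeR's quasi-likelihood test in any of the 5 comparisons. At an unadjusted p under 0.05 there were 1 in drdd against WT, 0 in rdd against WT, 1 in dme against WT, 1 in drdd against rdd and 2 in drdd against dme. The share of all tested genes under this unadjusted threshold is not given here, so nothing is read from such counts, here or below. DESeq2 called MYB74, and no other of the 4, in drdd against WT, drdd against rdd and drdd against dme.

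MYB74 (AT4G05100), a transcription factor gene of the R2R3-MYB family, is the gene next to ENT6 on the side away from the tandem. It had 1.39, 2.95 and 1.77 CPM in drdd, from 27, 30 and 18 counts. Its level was 0.181 to 0.264 CPM in rdd, 0.0729 to 0.674 CPM in dme and 0.0811 to 0.912 CPM in WT, all from at most 8 counts a library. The drdd libraries lay above all others. The log2 fold change was 2.59 in drdd over WT (SE 0.69; edgeR adjusted p = 0.0975, DESeq2 adjusted p = 0.0268), with the same direction in 3 of 3 drdd libraries. It was 3.07 in drdd over rdd (SE 0.70; edgeR adjusted p = 0.0801, DESeq2 adjusted p = 0.00842) and 2.27 in drdd over dme (SE 0.67; edgeR adjusted p = 0.0970, DESeq2 adjusted p = 0.0430). MYB74 was called under 2, 2 and 1 of 20 alternatives in these comparisons, DESeq2 among them. The log2 change of rdd over WT was −0.48 (SE 0.76), and the rdd and WT libraries overlapped.

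In a wider window of 15 annotated genes before ENT6 and 20 after it, set after the values were seen, 12 genes outside the family passed the filter. AT4G05070, with 10 annotated genes between it and ENT6, was the 1 gene of these 12 called in rdd against WT. Its level was 76.4, 84.5 and 94.3 CPM in drdd and 35.5, 43.9, 31.3 and 38.2 CPM in rdd. It was 66.3, 89.6, 64.3 and 101 CPM in dme and 124, 61.6, 74.6 and 80.9 CPM in WT. As for ENT6, every rdd library lay below the 11 others, and the log2 change was −1.19 in rdd over WT (SE 0.20) and 1.19 in drdd over rdd (SE 0.22). AT4G05070 was singled out by its likeness to ENT6, so these values too are a description.

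**Figure D4:**
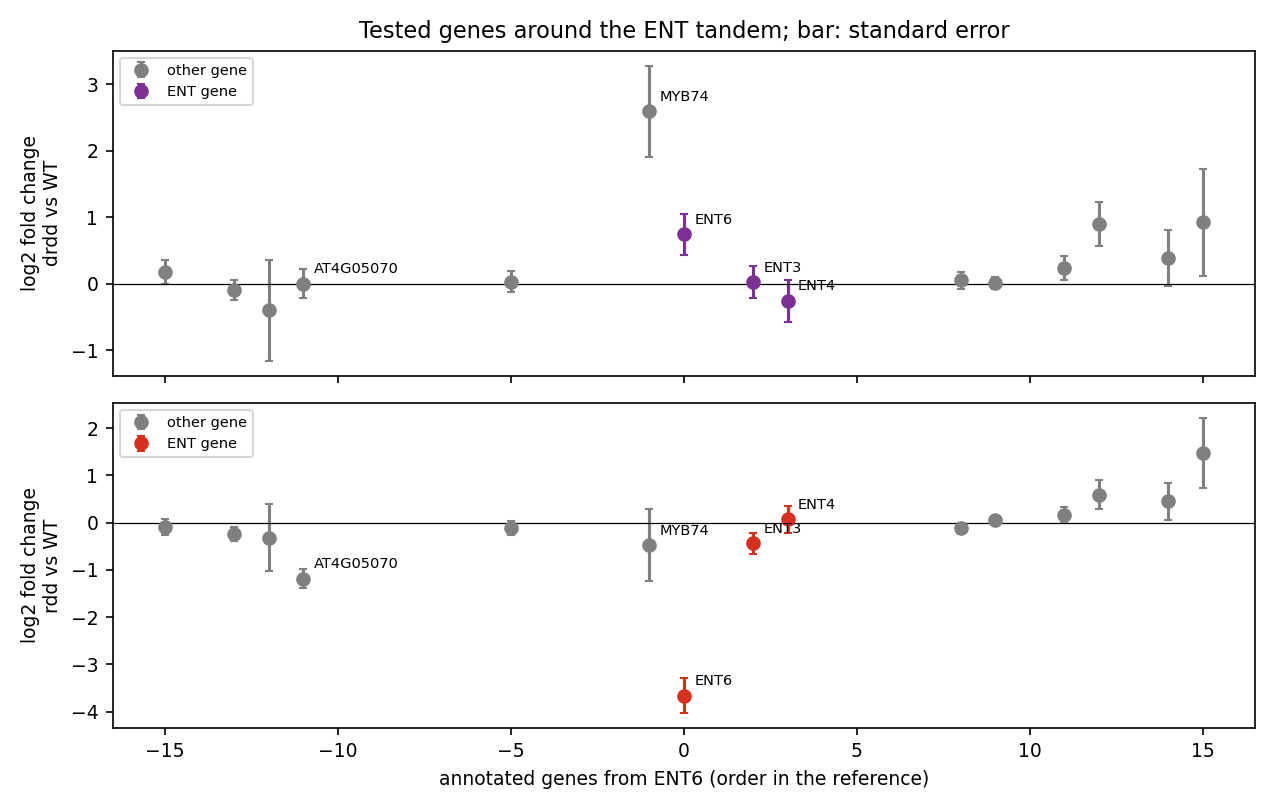
Fitted log2 fold changes (vertical axes; bars, standard error) of the tested genes around ENT6, by their order in the reference annotation (horizontal axis, ENT6 at 0), for drdd over WT above and rdd over WT below. In rdd the lowest points are ENT6 at −3.66 and AT4G05070 at −1.19; in drdd the highest is MYB74 at 2.59.

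ENT2, which had no counts, lies close to DML2 (AT3G10010), 1 of the 3 genes mutated in rdd, with EDA31, also without counts, as the annotated gene between them. Of the 10 genes around ENT2, 6 passed the filter. DML2 was called by both edgeR and DESeq2 in drdd against WT, rdd against WT and drdd against dme. The other gene called by edgeR, also called by DESeq2, was AT3G10030 in rdd against WT, at 19.5 ± 1.82 CPM in rdd and 27.1 ± 2.14 CPM in WT (SD, n = 4 each; log2 fold change −0.48, SE 0.10, edgeR adjusted p = 0.0364, lower in 4 of 4 rdd libraries). That call held under 9 of 20 alternative settings. DESeq2 alone called AT3G09970 in drdd against rdd, at 33.1 ± 3.11 CPM in drdd and 43.7 ± 1.20 CPM in rdd (SD, n = 3 and 4; edgeR adjusted p = 0.0684, DESeq2 adjusted p = 0.00486).

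The genes whose pattern was most like that of ENT6 were ranked by Pearson's r of log2(CPM + 0.5) over the 15 libraries, among 18597 tested genes. The points share their libraries, and these values are a description. The highest r was 0.89 for AT5G22270, followed by 0.86 for AT4G05070, 0.85 for MUG8 (a pseudogene in the annotation), 0.84 for AT1G61030 (WAPL2, a regulator of cohesin on chromosomes) and 0.84 for RLP27 (a receptor-like protein). ENT3 had r = 0.60 and rank 557, ENT1 0.25 and ENT4 −0.06. By ranks (Spearman's rho) the likeness was weaker, at 0.54 for AT5G22270, 0.71 for AT4G05070, 0.48 for MUG8, 0.49 for AT1G61030 and 0.48 for RLP27. ENT3 had a rho of 0.58, ENT1 0.54 and ENT4 −0.08, so the order depends on the measure. The strongest opposite patterns were AT2G03780 (−0.93), AT3G19680 (−0.90) and AT5G61990 (−0.87).

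After the mean of each genotype was subtracted, r of the 5 most alike genes was 0.11 to 0.26 and that of the 3 opposite genes −0.41 to −0.22. On this measure ENT4 had 0.51, ENT1 0.42 and ENT3 −0.31, so ENT4 and ENT1 exceeded the 5 most alike genes. AT5G22270 averaged 39.7 ± 5.87 CPM in drdd, 25.2 ± 1.40 in rdd, 44.0 ± 5.29 in dme and 40.6 ± 5.29 in WT. AT3G19680, of the opposite pattern, averaged 23.4 ± 5.06 CPM in drdd, 77.5 ± 25 in rdd, 16.2 ± 2.43 in dme and 26.8 ± 5.89 in WT (SD, n = 3, 4, 4 and 4 for both).

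**Figure D5:**
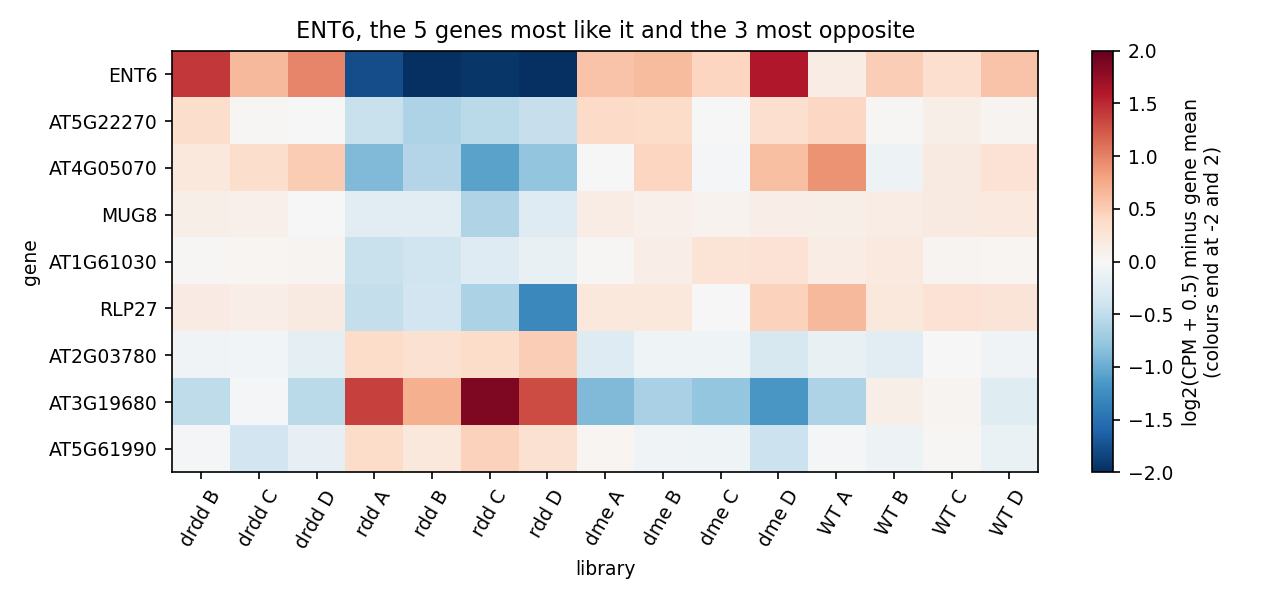
Deviation of log2(CPM + 0.5) from the mean of each gene (colour, ending at −2 and 2) in the 15 libraries (columns) for ENT6, the 5 genes most like it and the 3 most opposite. The 4 rdd columns are blue for ENT6 and the 5 like genes and red for the 3 opposite genes, and the ENT6 row has the strongest colours.

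Other genes of nucleoside transport and use were then read from 4 lists. Of 41 other nucleobase and nucleoside transporters, 30 were matched to a row and 18 passed the filter. edgeR's quasi-likelihood test called 1 higher and 0 lower in drdd against WT, 1 higher and 0 lower in drdd against dme, and 0 in rdd against WT, dme against WT and drdd against rdd. In those 3 comparisons the unadjusted edgeR p was under 0.05 for 5, 1 and 5 genes, and DESeq2 called 1, 0 and 1. The unadjusted counts have no share of all tested genes beside them and are not read as a trait of the list. The median log2 change of the list was 0.15 in drdd over WT and −0.24 in rdd over WT, against 0.00 and −0.01 over all tested genes.

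The called gene was PUP5 (AT2G24220), of the purine permease family, which carries purine bases and cytokinins. It stood at 9.96, 11.7 and 8.45 CPM in drdd and 11.4, 8.36, 10.5 and 8.88 CPM in rdd. It stood at 3.94, 2.86, 4.66 and 6.32 CPM in dme and 3.49, 5.70, 4.38 and 5.68 CPM in WT. All drdd and rdd libraries lay above all dme and WT libraries. The log2 fold change was 1.06 in drdd over WT (SE 0.25, edgeR adjusted p = 0.0497), 1.18 in drdd over dme (SE 0.25, edgeR adjusted p = 0.0239) and 1.02 in rdd over WT (SE 0.23, edgeR adjusted p = 0.0508). PUP5 was called under 4, 14 and 6 of 20 alternatives in these comparisons. In drdd over rdd its log2 value was 0.04 (SE 0.24), against 4.40 for ENT6.

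Of 34 genes of nucleoside salvage and breakdown, whose enzymes act on nucleosides, nucleotides, free bases or their breakdown products, 31 passed the filter. Neither edgeR nor DESeq2 called any of them in the 5 comparisons, and the number with an unadjusted edgeR p under 0.05 was 0 to 5. List medians lay between −0.05 and 0.08 on the log2 scale. Of 28 genes of cytokinin synthesis, activation and breakdown, 12 passed, none was called by either tool, 0 to 3 had an unadjusted edgeR p under 0.05, and the medians were −0.10 to 0.13.

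Of 19 cytokinin receptors, phosphotransmitters and type-A response regulators, 16 passed. edgeR called 1, ARR16 (AT2G40670), a type-A regulator whose transcript is induced by cytokinin, in rdd against WT. ARR16 averaged 58.4 ± 7.74 CPM in rdd and 36.5 ± 5.29 CPM in WT (SD, n = 4 each; log2 fold change 0.68, SE 0.13, edgeR adjusted p = 0.0213), was higher in 4 of 4 rdd libraries, and was called under 14 of 20 alternatives. The list had 0 calls by edgeR in the other 4 comparisons, with 5, 1, 1 and 4 genes at an unadjusted p under 0.05 in drdd against WT, dme against WT, drdd against rdd and drdd against dme. DESeq2 called 3, 0, 0 and 1 genes there: AHK4, ARR7 and ARR15 in drdd against WT, and AHP1 in drdd against dme. In rdd against WT it called 3, ARR6, ARR15 and ARR16. By edgeR's fit each of these was higher in the genotype named first. The list median was 0.12 in drdd over WT and 0.16 in rdd over WT. Over all genes DESeq2 called 636 in drdd against WT, 625 in rdd against WT and 991 in drdd against dme.

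Markers of other leaf cell types were set beside the low ENT6 level of rdd. The summed level of 7 guard cell markers, none of them at 0 in all libraries, was 98.7 to 135 CPM in drdd, 148 to 176 in rdd, 114 to 154 in dme and 116 to 147 in WT. The 7 phloem markers summed to 757 to 922 CPM in drdd, 746 to 1042 in rdd, 676 to 947 in dme and 710 to 852 in WT. The 7 xylem markers summed to 88.7 to 208 CPM in drdd, 105 to 172 in rdd, 40 to 119 in dme and 73.9 to 118 in WT. The 7 floral organ markers summed to 1.18 to 2.62 CPM in drdd, 2.61 to 17.6 in rdd, 0.758 to 1.90 in dme and 0.659 to 3.65 in WT. The median of these floral sums was 3.12 CPM in rdd and 2.2 in WT, and only 1 of the 7 markers passed the count filter. The guard cell sums of rdd lay above those of drdd and WT. FAMA, a transcription factor of guard cell formation, was the guard cell marker called by edgeR. It fell to a mean of 18.7 CPM in drdd, against 40.7 in rdd, 34.5 in dme and 34.8 in WT (edgeR adjusted p = 0.0227, 0.0264 and 0.0306). In drdd over WT the log2 change of FAMA was −0.89, that of the other guard cell markers −0.10 to 0.32, and the list median 0.05. The median log2 change of the xylem markers was 0.96 in drdd over WT and 0.81 in rdd over WT. edgeR called 0 of these 7 in either comparison, with 4 at an unadjusted p under 0.05 in each, and DESeq2 called 1 (IRX1) in drdd and 0 in rdd. Of the mesophyll markers, edgeR called 2 of 8, RCA and CA1, lower in drdd against dme. RBCS1A was lower too (log2 change −0.56), whereas CAB3 (1.49), LHCA1 (0.66), LHCB2.1 (0.32), CAB1 (0.29) and PSAD-1 (0.05) were higher. The list median was 0.17. With DESeq2, CA1, CAB3, RBCS1A and RCA were called. The part of these markers in the ENT6 result was not tested.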

How the data were processed

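Per the labels' protocols, RNA was purified with a column kit and selected for polyadenylated transcripts. For every library the authors deposited raw read counts by gene. The submitters' processing notes list STAR, HTSeq, Trim Galore, FastQC and DESeq2 without settings. Which genome build, annotation and strand setting were used is not given in the sources used here. The authors also deposited DESeq2 tables which, per the file headers, hold a mean signal per gene (counts divided by size factors), a log2 fold change with its standard error, a Wald statistic as a score, and p-values with their adjusted values; no table of drdd against dme was used here. From these tables only values named as the authors' are printed.

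Counts were analysed with edgeR 4.0.16 in R 4.3.3. Summary lines that name no gene were left out. The filter was filterByExpr (minimum count 10), which left 18598 genes. TMM factors were 0.953 to 1.09, and all 15 libraries entered one robust quasi-likelihood fit of genotype means (11 residual degrees of freedom, common biological coefficient of variation 0.266). A gene counted as called where its adjusted p (Benjamini-Hochberg, over all tested genes) was under 0.05. DESeq2 1.42.0 was an alternative, beside other scaling, no filter, fits of the compared genotypes alone, a replicate block and leaving out each library, 20 alternatives in all for a gene and comparison. The fitting was tested on simulated data. Libraries held 8730340 to 23302135 counts (median 12178873), and no replicates were alike within sampling noise.

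The members, the gene lists and the rule for named genes were chosen with earlier results of these data known. The rule named all ENT genes, the 5 annotated genes on each side of the tandem and of ENT2, the 5 genes most like ENT6 and the 3 most opposite, up to 4 called genes of each list, and the mutated demethylases. Gene order, symbols, coding lengths and proteins came from RefSeq's TAIR10.1 annotation, which matched 37051 of 37336 identifiers (99.2%). Protein identity is the share of identical residues over the columns of a global alignment made with Biopython 1.88.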

Additional observations from a re-analysis of the deposited data

Results flagged for a closer look

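Among 57 groups of 4 libraries examined, 1 library stood apart from the other 3 in 4 cases, by a gap larger than Dixon's 95% critical value; chance flags about 1 in 20 groups. ENT6 was at 8.43 CPM in dme D, against 3.47 to 4.09 CPM in the other dme libraries. AT5G22270 was at 36.2 CPM in dme C, against 45.6 to 47.4 CPM in the others of that genotype. MUG8 was at 15.5 CPM in rdd C, against 19.9 to 20.2 CPM in the other rdd libraries. RLP27 was at 3.73 CPM in WT A, against 2.62 to 2.81 CPM in the other WT libraries. The groups of 3 drdd libraries were not examined in this way.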

How the results depend on the processing

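Over 20 alternatives the log2 change of ENT6 was −3.83 to −3.54 in rdd over WT and 4.14 to 4.57 in drdd over rdd; since these values chose the family, its calls are not counted as support. The sign of ENT6 in drdd over dme turned under 1 alternative (range −0.07 to 0.56). The counts of called genes over all tested genes moved more (251 in drdd against WT, 200 in rdd against WT, 2 in dme against WT, 87 in drdd against rdd and 420 in drdd against dme). With DESeq2 they were 636, 625, 9, 375 and 991 in that order. With only the 2 genotypes compared they were 111, 220, 0, 50 and 134. With a replicate block they were 139, 111, 2, 50 and 225. Leaving out 1 library at a time gave 105 to 318, 93 to 327, 2 to 3, 19 to 126 and 126 to 494. The count moved by over 1.5 times in drdd against WT without WT C, drdd B or drdd C, and in rdd against WT without WT A, WT C, dme C or any of the 4 rdd libraries. It did so in drdd against rdd without WT B, WT C, dme A, dme B, rdd A, rdd C, rdd D, drdd B or drdd C, and in drdd against dme without dme B, dme D, drdd B or drdd C. The cause was not tested, except that fewer libraries and residual degrees of freedom enter the smaller fits. No pairing of libraries by replicate letter was seen, and the labels do not say what the letters mean. Deviations from the genotype means correlated at −0.495 to 0.43 between libraries of the same letter, over 0.1 in 8 of 21 pairs. Between different letters they correlated at −0.456 to 0.521, over 0.1 in 26 of 63 pairs. Such correlations cannot exclude that libraries were paired. With plain CPM, which leaves out the TMM scaling, the mean of ENT1 in drdd was 41 CPM. Its drdd libraries, at 41.7, 42.6 and 38.6 plain CPM, then lay above all others, the highest being rdd D at 37.7. With TMM scaling they overlapped with WT, so this pattern of ENT1 depended on the scaling. ENT6 had 2 to 5 counts in an rdd library, so differences among rdd libraries were not detectable at this depth.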
